A study of Mus musculus with 40 samples.

Results

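The proximal T cell receptor signalling genes are 10 genes whose products sit at the membrane end of the antigen receptor: Cd3d, Cd3e, Cd3g, Cd247, Zap70, Lat, Lcp2, Prkcq, Vav1 and Cd4. They were chosen by symbol, and every probe that the platform's gene table assigns to one of these symbols was taken, which gave 20 probes of the 45281 on the array. Of these, 18 were detected well enough to be tested, and each of the 10 genes had at least 1 of them, so that all 10 stood among the 10730 genes tested. The arrays measured total RNA of mouse CD4 T cells of the C57BL6 background, from animals aged 8 to 12 weeks. Naive cells positive for CD4 and CD62L, from lymph nodes and spleens, were driven in culture toward the Th1 or the Th17 helper fate. The cells were wild type (WT) or lacked Malt1 (Malt1-/-), and RNA was taken 48 h or 72 h after the start of induction. This gave 8 groups of 5 arrays: WT Th17, Malt1-/- Th17, WT Th1 and Malt1-/- Th1 cells, each at 48 h and at 72 h. The labels state neither how the cultures were stimulated nor which part of Malt1 is missing, and they do not say whether replicates came from separate animals, so p-values measure the spread between these arrays, which may be technical.

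When a T cell meets its antigen, the CD4 co-receptor brings a Src family kinase to the receptor, which phosphorylates the tails of the CD3 chains (Cd3d, Cd3e, Cd3g) and of the zeta chain (Cd247). The kinase ZAP-70 (Zap70) docks on these tails and phosphorylates the scaffolds LAT (Lat) and SLP-76 (Lcp2), which gather the Rac exchange factor Vav1 and the enzymes of calcium and diacylglycerol signalling. Protein kinase C theta (Prkcq) passes the signal on toward NF-kappaB, and all 10 genes act upstream of the protein that the Malt1-/- cells lack.

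On each array 14640 to 17409 probes were detected. Malt1 lay between 5.92 and 9.10 on the log2 scale on the 20 Malt1-/- arrays and at 10.35 or above on the 20 WT arrays, so no array went against its genotype label. Of the 8 T cell markers with a probe, 7 were detected on every array, Cd3d, Cd3e, Cd3g, Cd247 and Cd4 among them. The summed signal of 4 Th1 genes (Ifng, Tbx21, Il12rb2 and Cxcr3) was at least 8170 on every Th1 array and at most 1089 on every Th17 array. Tested singly, 3 of these 4 genes were lower and 1 was higher in Th17 than in Th1 cells, in both genotypes and at both times. Some arrays need naming before the results. The profile of 8 arrays was closer to the mean of another group than to that of their own, and for 5 of them, all WT, that other group was a Malt1-/- group of the same lineage: Th17 48 h replicate 5, Th17 72 h replicates 4 and 5, Th1 48 h replicate 1 and Th1 72 h replicate 4. A further set is 3 Malt1-/- Th17 arrays (48 h replicate 5, 72 h replicates 2 and 5) on which the summed signal of 9 myeloid marker genes was 2034, 3573 and 6225, against 263 to 425 on the WT Th17 arrays at 72 h. Values without these arrays are given with the results and in the closing part.

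Levels are log2 normalized signals, each from the brightest probe of its gene, which was detected on 40 of 40 arrays for all 10 genes. A difference is a log2 difference of group means with its standard error (SE) from the fit over all arrays (limma), n is 5 arrays a group, and a gene is said to have risen, fallen or differed when its adjusted p (Benjamini-Hochberg over 10730 genes) was under 0.05. In bulk RNA, fewer cells of a type and less RNA per cell cannot be told apart. The group means of a gene spanned 2.95-fold for Cd247, 2.65-fold for Lcp2, 2.54-fold for Cd4 and 2.22-fold for Lat, and 1.58- to 1.85-fold for the other 6. With the 8 groups of a gene put in order of their means, neighbouring groups overlapped in 7 of 7 cases for every gene except Prkcq, with 6 of 7, so these orders carry no fine ranking.

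**Figure D1:**
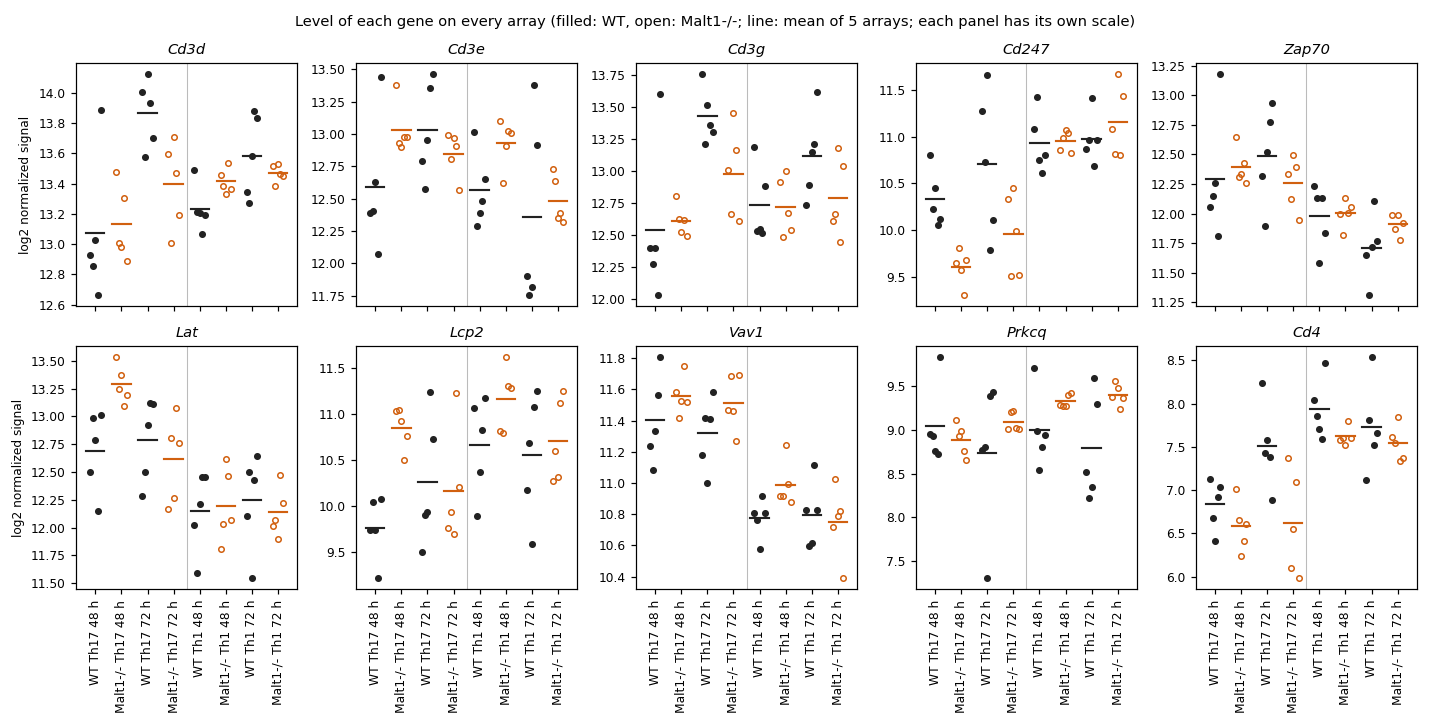
Log2 normalized signal (vertical axes, a separate scale for each gene) of the 10 genes on each of 40 arrays, by group (horizontal axis), with WT arrays filled, Malt1-/- arrays open and group means as lines. All Vav1 means of Th17 groups lie above those of Th1 groups, and the Cd247 and Cd4 values of Malt1-/- Th17 cells at 48 h lie below all those of Malt1-/- Th1 cells.

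The contrast of Th17 with Th1 cells held most of the differences. Vav1 was higher in Th17 cells in all 4 settings of genotype and time, by 1.44- to 1.70-fold, and Cd4 was lower in 3 of 4, by 1.90- to 2.14-fold. In cells lacking Malt1, Cd247 was lower in Th17 cells at both times and Lat higher at 48 h, while Zap70 and Cd3e were higher in WT Th17 cells at 72 h and Lcp2 lower in WT Th17 cells at 48 h. In all, 13 of 40 tests were called, 7 higher and 6 lower in Th17 cells. This was 3 of 10 genes were called in WT cells at 48 h (17.5% of all genes tested), 3 in WT cells at 72 h (18.9%), 4 in Malt1-/- cells at 48 h (18.6%) and 3 in Malt1-/- cells at 72 h (20.8%). Arrays of the lineages did not overlap for 2, 0, 6 and 3 of the 10 genes in that order, beside 12.8%, 8.00%, 22.8% and 16.9% of all genes. The median difference of the 10 genes was -0.07, 0.30, -0.20 and 0.06 in that order, and that of all genes tested was 0.00, -0.01, -0.01 and 0.02. Klrd1, the only tested gene of 4 NK cell markers, was higher in Th17 cells in each comparison, by 2.40 to 3.39 on the log2 scale, while the other 3 (Ncr1, Klrb1c and Klra8) did not pass the detection filter. Of the 7 tested myeloid markers, 0 differed between lineages in WT cells at either time, while in Malt1-/- cells 4 were higher in Th17 cells at 48 h (median difference 1.29 over the 7) and 5 at 72 h (median 2.13). The part of these markers in the results was not tested.

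**Figure D2:**
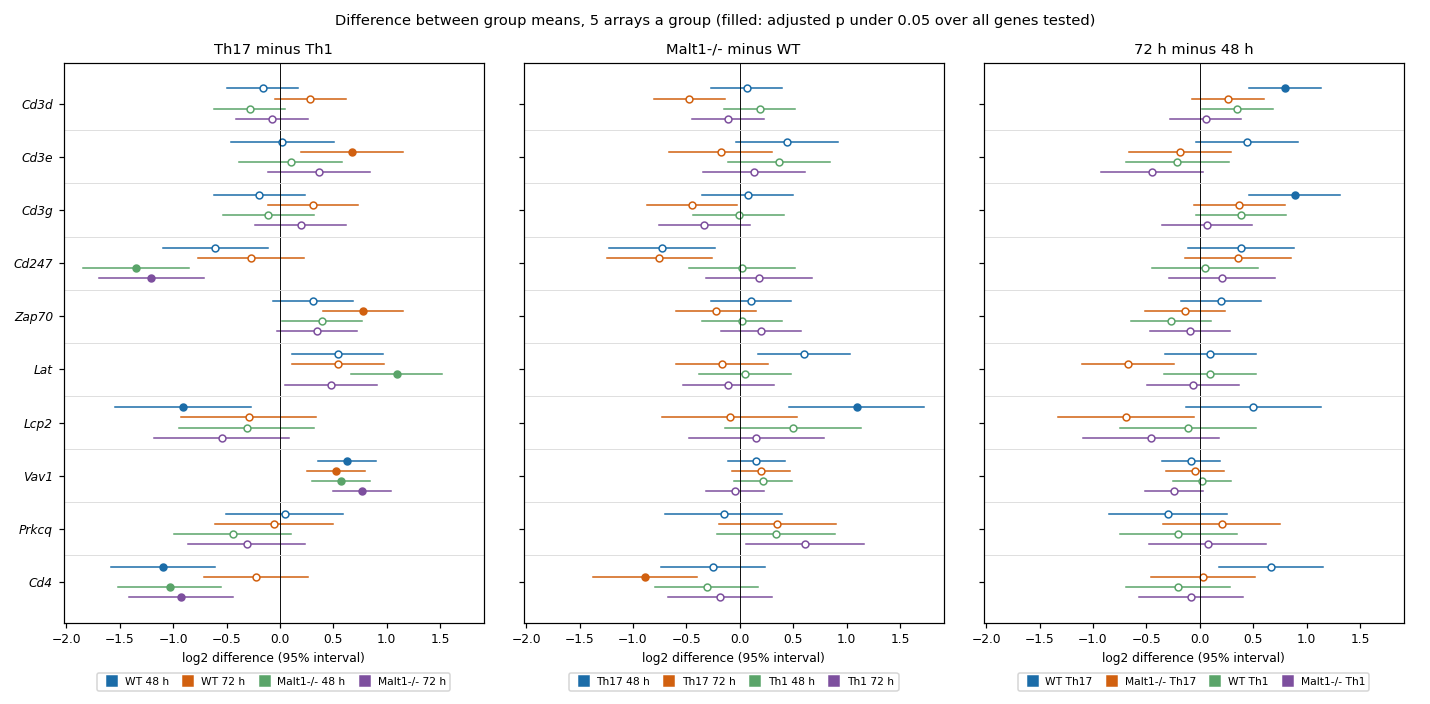
Log2 difference (horizontal axes, with 95% intervals) of each gene (vertical axis) for Th17 minus Th1, Malt1-/- minus WT and 72 h minus 48 h, in 4 comparisons each, 5 arrays a group; filled points passed the test over all genes. Filled points number 13 in the first panel, 2 in the second and 2 in the third.

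Vav1, which activates Rac at the receptor, showed the most even difference between the lineages. At 48 h the WT Th17 arrays read 11.09, 11.23, 11.33, 11.56 and 11.81, and the WT Th1 arrays 10.58, 10.76, 10.81, 10.81 and 10.91. The groups did not overlap, and the difference was 0.63 (SE 0.13, adjusted p = 0.00063). In Malt1-/- cells at 48 h the Th17 arrays ran from 11.42 to 11.75 around a median of 11.53 and the Th1 arrays from 10.88 to 11.24 around 10.92, a difference of 0.57 (adjusted p = 0.0018), again with no overlap. At 72 h the Malt1-/- Th17 arrays lay at 11.27 to 11.69 and the Th1 arrays at 10.39 to 11.02, which gave 0.77 (adjusted p = 3.4e-05). In WT cells at 72 h the lowest Th17 array lay just below the highest Th1 array (11.12), and the difference was 0.52 (adjusted p = 0.0042). With median scaling in place of quantile normalization the Vav1 differences were 0.42, 0.42, 0.62 and 0.76 (WT 48 h, WT 72 h, Malt1-/- 48 h and 72 h) with adjusted p = 0.24, 0.26, 0.058 and 0.015, and with only the groups compared in the fit the WT value at 72 h had an adjusted p of 0.085. Vav1 passed no test of genotype or time.

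Lat, the membrane scaffold phosphorylated by ZAP-70, was 2.13-fold higher in Malt1-/- Th17 than in Malt1-/- Th1 cells at 48 h. The Th17 arrays read 13.10, 13.20, 13.25, 13.37 and 13.53 and the Th1 arrays 11.81, 12.03, 12.07, 12.46 and 12.62, with a wide gap between the groups. The difference was 1.09 (SE 0.21, adjusted p = 0.00019). The other 3 lineage comparisons gave 0.54, 0.54 and 0.48 (adjusted p = 0.075 and 0.069 in WT cells at 48 h and 72 h and 0.11 in Malt1-/- cells at 72 h). In WT cells at 72 h Lat passed the test without Th17 replicate 1 (0.67, adjusted p = 0.030), without Th17 replicate 2 (0.61, 0.049) or without Th1 replicate 5 (0.64, 0.036), and at 48 h without Th17 replicate 4 (0.67, 0.029). With 1 array left out in turn, the WT difference ran from 0.37 to 0.67 at 72 h (adjusted p = 0.030 to 0.26). At 48 h it ran from 0.40 to 0.67 (adjusted p = 0.029 to 0.23). Without the 8 arrays closer to another group it was 0.37 at 72 h (adjusted p = 0.38) and 0.43 at 48 h (adjusted p = 0.26). A second Lat probe, detected on 8 of 40 arrays, gave 0.30 in Malt1-/- cells at 48 h and did not pass, and the mean of both probes gave 0.70 (adjusted p = 0.0051).

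Promoter windows of Vav1 and Lat are shown because Vav1 was higher in Th17 cells in all 4 comparisons and Lat had the largest positive lineage difference of the 10 genes (1.09). RefSeq (GRCm38.p6) places the Vav1 window at chr17:57278850-57279149 on the plus strand and the Lat window at chr7:126369519-126369818 on the minus strand, each 250 bases before to 50 after the start of the gene, read 5′ to 3′ along the gene. Capitals mark GGAA or its complement TTCC, the core letters bound by ETS factors, a family active in lymphocytes.
Vav1: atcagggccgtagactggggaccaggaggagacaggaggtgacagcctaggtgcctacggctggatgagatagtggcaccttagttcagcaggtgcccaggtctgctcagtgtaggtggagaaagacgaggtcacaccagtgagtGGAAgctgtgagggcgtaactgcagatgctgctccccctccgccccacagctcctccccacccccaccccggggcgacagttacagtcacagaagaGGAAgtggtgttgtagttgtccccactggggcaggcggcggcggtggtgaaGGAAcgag
Lat: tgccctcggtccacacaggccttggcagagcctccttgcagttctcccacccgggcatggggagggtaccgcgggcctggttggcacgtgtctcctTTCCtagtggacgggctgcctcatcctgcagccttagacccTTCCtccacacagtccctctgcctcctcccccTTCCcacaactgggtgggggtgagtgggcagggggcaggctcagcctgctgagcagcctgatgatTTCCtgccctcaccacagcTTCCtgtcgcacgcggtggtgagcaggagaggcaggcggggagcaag
The letters occur 3 times in the Vav1 window and 5 times in the Lat window, and the median over 32851 RefSeq promoter windows is 3.

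Windows were listed for 9 of the 10 genes, 3 of them for Zap70. GGAA was found on either strand in at least 1 window of 9 of 9 genes, and 96% of all promoter windows hold it. The E-box CANNTG was found in 9 of 9 (72.3% of all windows) and the RUNX letters TGTGGT in 2 of 9, Lat and 1 Zap70 window (16.8%). The AP-1 letters TGANTCA, the TATA box letters TATAAA and the NF-kappaB decamer, which can itself contain GGAA, were found in 0 of 9, and 7.81%, 13.6% and 8.46% of all windows hold them. Both strands were searched, and a match describes letters, not a bound site.

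Cd4, the co-receptor that reads MHC class II, was lower in Th17 cells. In WT cells at 48 h the Th17 arrays read 6.42, 6.68, 6.92, 7.03 and 7.13 and the Th1 arrays 7.59, 7.70, 7.86, 8.04 and 8.47. No array overlapped, and the difference was -1.10 (SE 0.24, adjusted p = 0.00094), which is 2.14-fold. In Malt1-/- cells at 48 h the Th17 arrays lay at 6.24 to 7.01 and the Th1 arrays at 7.52 to 7.80, a difference of -1.03 (adjusted p = 0.0016) without overlap. In WT cells at 72 h the groups largely overlapped, with Th17 arrays at 6.89, 7.38, 7.43, 7.58 and 8.24 and Th1 arrays at 7.11, 7.52, 7.66, 7.81 and 8.54. The difference there was -0.22 (95% interval -0.71 to 0.26, adjusted p = 0.58).

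In Malt1-/- cells at 72 h Cd4 was again lower in Th17 cells, by -0.92 (adjusted p = 0.0041). The Th17 arrays read 5.98, 6.10, 6.54, 7.09 and 7.37 and the Th1 arrays 7.33, 7.37, 7.55, 7.61 and 7.84, so the highest Th17 array just reached the Th1 range. The 2 lowest values came from replicates 5 and 2, the arrays with the highest myeloid marker sums of their group (6225 and 3573; the others 611, 651 and 1285). Without the 3 Malt1-/- Th17 arrays of high myeloid sum, the difference at 72 h was -0.54 (adjusted p = 0.17) and that at 48 h was -1.04 (adjusted p = 0.0017). The size of the Cd4 differences depends on background correction: without it they were -0.61 (WT, 48 h), -0.52 (Malt1-/-, 48 h) and -0.44 (Malt1-/-, 72 h), with adjusted p = 0.00088, 0.0041 and 0.013. A second Cd4 probe was detected on 0 arrays and could not be used.

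Cd247, which encodes the zeta chain, was 2.55-fold lower in Th17 than in Th1 cells lacking Malt1 at 48 h and 2.30-fold lower at 72 h by its brightest probe. At 48 h the Malt1-/- Th17 arrays read 9.30, 9.57, 9.65, 9.68 and 9.81 and the Malt1-/- Th1 arrays 10.82, 10.85, 10.99, 11.04 and 11.07. At 72 h the Th17 arrays read 9.51, 9.52, 9.99, 10.33 and 10.45 and the Th1 arrays 10.81, 10.81, 11.09, 11.44 and 11.67. The groups stood clear of each other at both times, and the differences were -1.35 and -1.20 (SE 0.24, adjusted p = 7.3e-05 and 0.00029). In WT cells they were -0.60 and -0.27 (adjusted p = 0.085 and 0.51), and the value at 48 h passed without WT Th17 replicate 1 (-0.72, adjusted p = 0.049) and with median scaling (-0.81, adjusted p = 0.010), while the mean of the 3 probes gave -0.08 (adjusted p = 0.89). Without the 3 arrays of high myeloid sum the Malt1-/- differences were -1.37 and -0.91 (adjusted p = 0.00015 and 0.020).

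The 3 probes of Cd247 disagreed on this contrast. The other 2 gave -0.47 and -0.12 in Malt1-/- cells at 48 h and -0.47 for both at 72 h, none past the test over the 20739 kept probes (15.2% and 16.2% of which were called at 48 h and 72 h), and values of 0.10 to 0.31 in WT cells. With the mean of all 3 probes in place of the brightest, the Malt1-/- differences were -0.65 (adjusted p = 0.11) and -0.71 (adjusted p = 0.068). All 3 probes carry the same RefSeq transcript annotation in the platform table. The raw signal of the brightest was 736.9 to 3521.4, and that of the other 2 was 228.1 to 789.6 and 164.9 to 374.1. The array medians were 127.1 to 193.3, so the other 2 probes lay closer to background. All 3 probes were lower in Malt1-/- Th17 than in Malt1-/- Th1 cells, but the calls and the size of the difference are a result of 1 probe of 3.

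**Figure D3:**
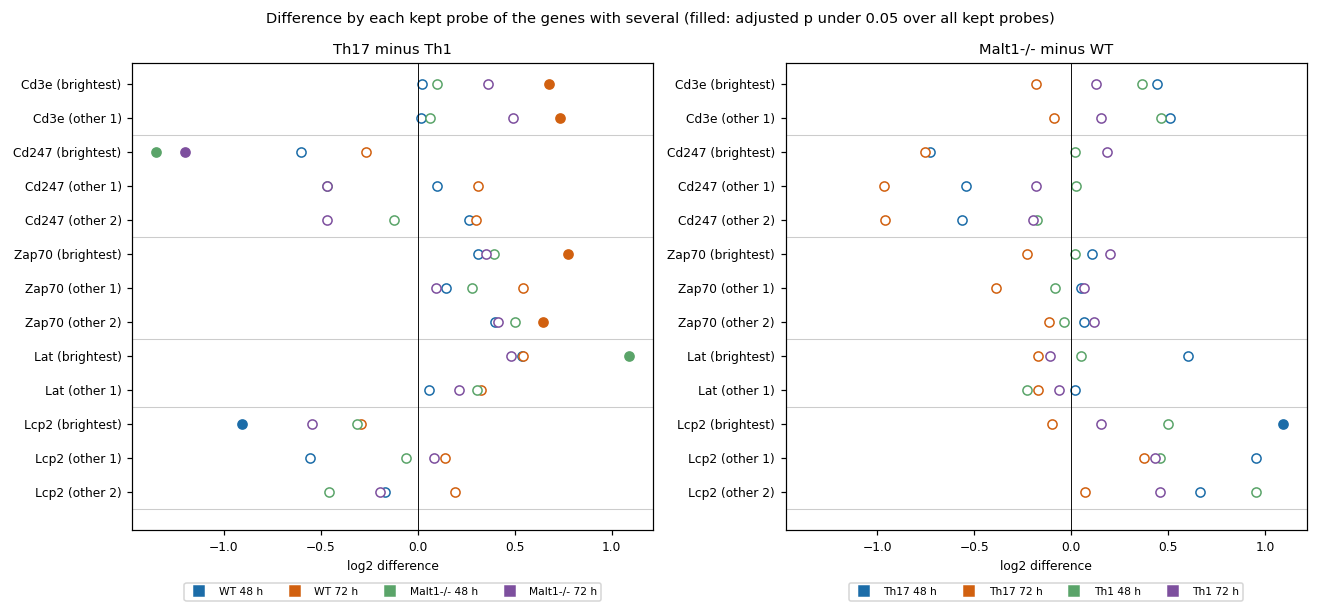
Log2 difference (horizontal axes) by each tested probe (vertical axis) of the 5 genes with more than 1, for Th17 minus Th1 and Malt1-/- minus WT; filled points passed the test over all kept probes. The Cd3e probes lie close together in each comparison, while the brightest Cd247 probe lies far below the other 2 for Malt1-/- cells in the first panel.

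Zap70, the kinase that docks on phosphorylated CD3 and zeta chains, was 1.71-fold higher in WT Th17 than in WT Th1 cells at 72 h. The Th17 arrays read 11.89, 12.31, 12.52, 12.77 and 12.93 and the Th1 arrays 11.31, 11.65, 11.72, 11.77 and 12.11. The ranges met only between the lowest Th17 and the highest Th1 array, and the difference was 0.78 (SE 0.19, adjusted p = 0.0023). Of the 3 Zap70 probes 2 passed the test over probes (0.78 and 0.65), beside 14.6% of all kept probes, and the third gave 0.54. With median scaling the difference was 0.67 (adjusted p = 0.051), and with only the groups compared in the fit the adjusted p was 0.053. In the other lineage comparisons Zap70 gave 0.31, 0.39 and 0.35 (WT 48 h, Malt1-/- 48 h and 72 h) and did not pass, although in Malt1-/- cells at 48 h the Th17 arrays (12.26 to 12.64) lay above the Th1 arrays (11.82 to 12.13).

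Cd3e, the chain through which the CD3 complex recruits the adaptor NCK, was 0.67 higher in WT Th17 than in WT Th1 cells at 72 h (SE 0.24, adjusted p = 0.040), and its second probe gave 0.73. The Th17 arrays read 12.58, 12.79, 12.95, 13.36 and 13.46, and the Th1 arrays 11.75, 11.82, 11.91, 12.92 and 13.38. The Th1 group thus had 3 low arrays and 2 inside the Th17 range, replicates 4 and 5. The call was lost without replicate 3, 4 or 5 of the Th17 group (differences 0.69, 0.59 and 0.57, adjusted p = 0.056 to 0.12), without replicate 1, 2 or 3 of the Th1 group (0.56, 0.52 and 0.54, adjusted p = 0.12 to 0.14), with median scaling (adjusted p = 0.18), without a detection filter (0.064), with only the groups compared (0.26) and without the arrays of high myeloid sum (0.051).

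Lcp2, the gene of the cytosolic scaffold SLP-76, was lower in WT Th17 than in WT Th1 cells at 48 h. The Th17 arrays read 9.22, 9.74, 9.74, 10.04 and 10.07 and the Th1 arrays 9.89, 10.37, 10.83, 11.07 and 11.18, with 1 Th1 array (replicate 2) inside the Th17 range. The difference was -0.91 (SE 0.31, adjusted p = 0.039), and the other 2 probes gave -0.56 and -0.17, the first of them detected on only 2 of the 5 Th17 arrays. The call was lost without Th17 replicate 1, 3 or 4 or Th1 replicate 1, 4 or 5 (adjusted p = 0.065 to 0.12), and also without a detection filter (0.067), without the arrays of high myeloid sum (-0.91, 0.052), with the mean of all probes (-0.55, adjusted p = 0.13) and once the 8 arrays nearer to other groups were dropped (-0.88, adjusted p = 0.061). Prkcq, a kinase activated by diacylglycerol, and the CD3 chains Cd3d and Cd3g passed no lineage test, with differences of -0.44 to 0.04 for Prkcq and -0.28 to 0.31 for the chains. Prkcq arrays did not overlap between lineages in Malt1-/- cells at either time, with Th17 arrays at 8.66 to 9.12 against 9.27 to 9.43 at 48 h and 9.01 to 9.22 against 9.23 to 9.56 at 72 h.

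Loss of Malt1 left most of the 10 genes without a detected difference. Of 40 tests 2 were called, Lcp2 higher in Malt1-/- Th17 cells at 48 h and Cd4 lower in Malt1-/- Th17 cells at 72 h. This is 1 of 10 genes in Th17 cells at 48 h (6.38% of all genes tested), 1 in Th17 cells at 72 h (4.42%) and 0 in Th1 cells at 48 h (1.39%) and 72 h (2.77%). At an unadjusted p under 0.05 the limma fit gave 3, 4, 0 and 1 of 10, beside 23.3%, 21.6%, 12.3% and 16.4% of all genes. The median difference of the 10 genes was 0.09, -0.20, 0.12 and 0.04, and that of all genes tested lay between -0.01 and 0.04. At 48 h in Th17 cells 3 genes did not overlap between genotypes, Lcp2, Lat and Cd247, beside 10.1% of all genes. In the other comparisons all 10 genes overlapped, and 3.94%, 4.47% and 2.77% of all genes did not.

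Lcp2 in Th17 cells at 48 h read 9.22, 9.74, 9.74, 10.04 and 10.07 on WT arrays and 10.51, 10.76, 10.93, 11.03 and 11.04 on Malt1-/- arrays. Every Malt1-/- array was above every WT array, and the difference was 1.09 (SE 0.31, adjusted p = 0.033), which is 2.13-fold. The other 2 probes gave 0.95 and 0.66 (adjusted p = 0.051 and 0.19), both with overlapping groups. The probe with 0.95 was detected on 29 of 40 arrays and on only 2 of the 5 WT arrays here, so its WT level is near background. The adjusted p rose to between 0.055 and 0.085 when replicate 1, 3 or 4 of the WT group or replicate 1, 2, 3 or 5 of the Malt1-/- group was left out, with differences of 0.96 to 1.12. It was 0.054 without a detection filter and 0.061 without the arrays of high myeloid sum. At 72 h the difference was -0.10 (95% interval -0.73 to 0.54), and the Malt1-/- arrays (9.70, 9.76, 9.93, 10.20 and 11.23) lay among the WT arrays (9.50, 9.91, 9.93, 10.73 and 11.24).

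Lat and Cd247 also had non-overlapping genotypes in Th17 cells at 48 h, in opposite directions, without passing the test. Lat was 12.15, 12.50, 12.79, 12.99 and 13.02 on WT arrays and 13.10 to 13.53 on Malt1-/- arrays, a difference of 0.60 (adjusted p = 0.077). Cd247 was 10.05, 10.12, 10.22, 10.45 and 10.80 on WT arrays and 9.30 to 9.81 on Malt1-/- arrays, a difference of -0.73 (adjusted p = 0.064). Without WT replicate 5, both passed (Lat 0.68, adjusted p = 0.043; Cd247 -0.78, adjusted p = 0.048). The profile of that array was closer to the mean of the Malt1-/- group than to that of its own. With 1 array left out in turn, Lat ran from 0.47 to 0.68 (adjusted p = 0.043 to 0.21). Cd247 ran from -0.80 to -0.61 (adjusted p = 0.048 to 0.18). The second Lat probe, detected on 8 of 40 arrays, gave 0.02, and the mean of both Lat probes 0.31 (adjusted p = 0.32). All 3 Cd247 probes were lower in Malt1-/- Th17 cells, by -0.73, -0.54 and -0.56 at 48 h and -0.75, -0.97 and -0.96 at 72 h, and none of them passed (4.57% and 2.76% of all kept probes were called).

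At 72 h the Cd247 arrays of WT Th17 cells were widely spread, at 9.79, 10.10, 10.73, 11.28 and 11.66, and those of Malt1-/- cells lay at 9.51 to 10.45 (-0.75, adjusted p = 0.066). The 2 lowest WT values came from replicates 4 and 5, whose profiles were closer to Malt1-/- groups. The test was passed without WT replicate 4 (-0.98, adjusted p = 0.012), WT replicate 5 (-0.91, 0.024) or Malt1-/- replicate 3 (-0.88, 0.047). Without the arrays of high myeloid sum the difference was instead -0.46 (adjusted p = 0.53).

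Cd4 in Th17 cells at 72 h was 1.85-fold lower without Malt1. The WT arrays read 6.89, 7.38, 7.43, 7.58 and 8.24 and the Malt1-/- arrays 5.98, 6.10, 6.54, 7.09 and 7.37, so that 2 Malt1-/- arrays lay inside the WT range. The difference was -0.89 (SE 0.24, adjusted p = 0.030). It lost its call without WT replicate 1 (-0.70, adjusted p = 0.11) or 3 (-0.87, 0.10), without Malt1-/- replicate 2 (-0.76, 0.10) or 5 (-0.73, 0.12), with median scaling (0.11) and with only the groups compared (0.23). Without background correction it was -0.44 (adjusted p = 0.045). Without replicates 2 and 5 of the Malt1-/- group, the arrays of high myeloid sum, it was -0.50 (adjusted p = 0.45).

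Those 2 arrays held the lowest values of their group for 6 of the 10 genes, Cd3d, Cd3e, Cd3g, Cd247, Zap70 and Cd4, and the same pair of arrays was lowest for 17% of all genes tested. Of the 9 myeloid markers, 7 were tested, and 4 (S100a8, S100a9, Lyz1 and Fcer1g) were higher in Malt1-/- than in WT Th17 cells at 72 h. Itgam, Csf1r, Cd14 and Tyrobp were detected on 0 of the 5 Malt1-/- arrays there. Cd3d and Cd3g were -0.47 and -0.45 in Malt1-/- Th17 cells at 72 h (adjusted p = 0.087 and 0.20) and -0.28 and -0.22 without the arrays of high myeloid sum. How much of these differences goes with the myeloid signal beyond these values was not tested.

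The test of whether the effect of Malt1 differed between lineages or between times called 0 of 40. At an unadjusted p under 0.05 the same limma fit gave 6, beside 5.58% to 16.5% of all genes in each of the 4 tests. The percentages of all genes called were 0.140% (Th17 against Th1 at 48 h), 0.699% (the same at 72 h), 0.121% (72 h against 48 h in Th17 cells) and 0.0746% (72 h against 48 h in Th1 cells). For Lcp2 in Th17 cells the effect at 72 h was lower than at 48 h by a difference of -1.19 (95% interval -2.09 to -0.29, adjusted p = 0.17), and for Lat by -0.77 (-1.38 to -0.16, adjusted p = 0.18). For Cd247 at 72 h, the effect in Th17 minus that in Th1 cells was -0.94 (-1.64 to -0.24, adjusted p = 0.26).

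Between 48 h and 72 h, Cd3d and Cd3g rose together in WT Th17 cells, and no other of the 40 tests over time was called. These are the delta and gamma chains that pair with the epsilon chain in the CD3 complex. The calls make 2 of 10 genes in WT Th17 cells (12.3% of all genes tested, and 4.97% counting rises alone), 0 in WT Th1 cells (10.5%), 0 in Malt1-/- Th17 cells (0.699%) and 0 in Malt1-/- Th1 cells (5.95%). At an unadjusted p under 0.05 the limma fit gave 3, 1, 2 and 0 of 10, beside 27.6%, 26.3%, 14.1% and 21.9% of all genes. Arrays of the 2 times did not overlap for 0, 0, 1 and 0 genes (4.18%, 3.05%, 6.37% and 7.61% of all genes); the 1 was Lat in Malt1-/- Th17 cells, at -0.67 (adjusted p = 0.13).

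Cd3d read 12.66, 12.85, 12.93, 13.02 and 13.88 in WT Th17 cells at 48 h and 13.57, 13.70, 13.93, 14.00 and 14.12 at 72 h, a rise of 0.80 (SE 0.17, adjusted p = 0.0038) or 1.74-fold. Cd3g read 12.03, 12.27, 12.40, 12.40 and 13.60 at 48 h and 13.21, 13.30, 13.36, 13.51 and 13.76 at 72 h, a rise of 0.89 (SE 0.21, adjusted p = 0.0070) or 1.85-fold. For both genes 1 array at 48 h, replicate 5, lay inside the 72 h range and the other 4 below it. With only the groups compared in the fit, neither passed (adjusted p = 0.13 for each), and with median scaling Cd3g had an adjusted p of 0.051. After removal of the 8 arrays nearer to other groups, which include that replicate and 2 of the 72 h arrays, the rises were 1.03 and 1.22 (adjusted p = 3.9e-05 and 0.00012). In that setting 24.3% of all genes were called, against 12.3% with all arrays.

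In Malt1-/- Th17 cells the differences over time were 0.26 for Cd3d and 0.37 for Cd3g (95% intervals -0.07 to 0.60 and -0.06 to 0.79), and in WT Th1 cells 0.35 and 0.39. For Cd3d the effect of Malt1 at 72 h minus that at 48 h in Th17 cells was -0.53 (adjusted p = 0.24), and -0.74 (adjusted p = 0.030) without WT Th17 48 h replicate 5. Without that replicate, Cd3e (0.65, adjusted p = 0.043) and Cd4 (0.72, adjusted p = 0.047) also rose over time in WT Th17 cells. Cd4 did so as well without WT Th17 72 h replicate 5 (0.82, adjusted p = 0.019), and without the arrays of high myeloid sum (0.67, adjusted p = 0.047). After removal of the 8 arrays nearer to other groups, Cd4 (0.96, adjusted p = 0.016) and Cd247 (0.84, adjusted p = 0.010) also rose in WT Th17 cells, and Cd3e fell in Malt1-/- Th1 cells (-0.56, adjusted p = 0.031). By its construction that choice removes arrays that resemble another group. The share of all genes called over time rose with it, from 12.3% to 24.3% in WT Th17 cells and from 5.95% to 17.6% in Malt1-/- Th1 cells.

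Cd3d and Cd3g lie next to each other on chromosome 9 and are transcribed in opposite directions. Their RefSeq starts in GRCm38.p6 are 1355 bases apart with 0 other listed genes between them. Their windows are shown because the 2 genes rose together. The Cd3g window is chr9:44980382-44980681 on the minus strand and the Cd3d window chr9:44981536-44981835 on the plus strand, with GGAA or TTCC in capitals.
Cd3g: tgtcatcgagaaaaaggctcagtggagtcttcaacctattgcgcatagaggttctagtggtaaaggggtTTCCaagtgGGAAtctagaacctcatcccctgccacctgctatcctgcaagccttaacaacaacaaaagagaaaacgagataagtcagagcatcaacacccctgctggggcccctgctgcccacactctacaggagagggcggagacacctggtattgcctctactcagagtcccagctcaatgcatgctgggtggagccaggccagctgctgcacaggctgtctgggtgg
Cd3d: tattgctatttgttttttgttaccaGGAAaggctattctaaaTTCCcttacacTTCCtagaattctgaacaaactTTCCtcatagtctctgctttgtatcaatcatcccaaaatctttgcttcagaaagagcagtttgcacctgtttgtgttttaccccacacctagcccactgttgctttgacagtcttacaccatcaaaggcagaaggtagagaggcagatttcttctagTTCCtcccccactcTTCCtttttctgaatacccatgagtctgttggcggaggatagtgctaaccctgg
The Cd3g window holds 2 such matches and the Cd3d window 6. Across the 40 arrays the levels of the 2 genes had a correlation of 0.87, and of 0.82 once group means were removed.

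Over single arrays, some of the 10 genes deviated together from their group means. With group means removed, Lat and Lcp2 had a correlation of 0.85 over 40 arrays, Cd3e and Zap70 of 0.78, Cd3d and Zap70 of 0.73 and Cd3e and Prkcq of 0.70. The lowest was -0.57, between Cd247 and Vav1. All arrays share one normalization, so these are descriptions. WT Th17 48 h replicate 5 was the highest of its group for 8 of the 10 genes, with 13.88 for Cd3d, 13.44 for Cd3e and 13.18 for Zap70, and WT Th17 48 h replicate 4 was the lowest for 8 of them. Replicate 5 stood apart over its whole profile. The shares of all genes highest or lowest on these arrays were not counted, so the counts are not read as particular to the 10 genes.

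Prkcq was high on the 5 WT arrays that lay closer to a Malt1-/- group. They read 9.83 in Th17 cells at 48 h, 9.39 and 9.44 in Th17 cells at 72 h, 9.71 in Th1 cells at 48 h and 9.59 in Th1 cells at 72 h. In each of the 4 WT groups these were the highest arrays, 5 of 5. These arrays were set apart by their whole profile, and the share of all genes with them at the top was not counted. The other WT arrays lay at 8.72 to 8.95, 7.31 to 8.81, 8.54 to 8.99 and 8.22 to 9.30 in that order, and the Malt1-/- arrays at 8.66 to 9.12, 9.01 to 9.22, 9.27 to 9.43 and 9.23 to 9.56. Each of the 5 thus lay above every Malt1-/- array of its lineage and time, not among them. Malt1 itself was at least 11.36 on these 5 arrays, in the WT range.

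With all arrays, Prkcq was -0.15, 0.35, 0.34 and 0.61 in Malt1-/- minus WT cells (Th17 48 h, Th17 72 h, Th1 48 h and Th1 72 h; adjusted p = 0.79, 0.47, 0.68 and 0.25). After removal of the 8 arrays nearer to other groups, Prkcq was higher in Malt1-/- cells at 72 h, by 0.77 in Th17 (adjusted p = 0.029) and 0.77 in Th1 cells (adjusted p = 0.042), with 3 and 4 WT arrays left. Of the 3 in Th17 cells, replicate 3 read 7.31, and leaving out that array alone from the full set changed the Th17 difference from 0.35 to -0.01 (adjusted p = 0.99). The WT arrays removed held the highest Prkcq values of their groups, so their removal by itself lowers the WT means of Prkcq in both lineages. In Th17 cells at 48 h, Cd3e (0.66), Lat (0.68) and Lcp2 (1.17) were then higher and Cd247 (-0.78) lower, with adjusted p = 0.011, 0.043, 0.011 and 0.012. At 72 h Cd247 (-1.15, adjusted p = 0.0018) and Cd4 (adjusted p = 0.019) were lower. By its construction this choice removes 5 WT arrays that resemble Malt1-/- arrays and 3 Malt1-/- arrays closest to the other time of their own lineage. The percentages of all genes called between genotypes rose with it, to 15.4% and 15.7% in Th17 cells and 3.26% and 5.15% in Th1 cells at 48 h and 72 h.

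**Figure D4:**
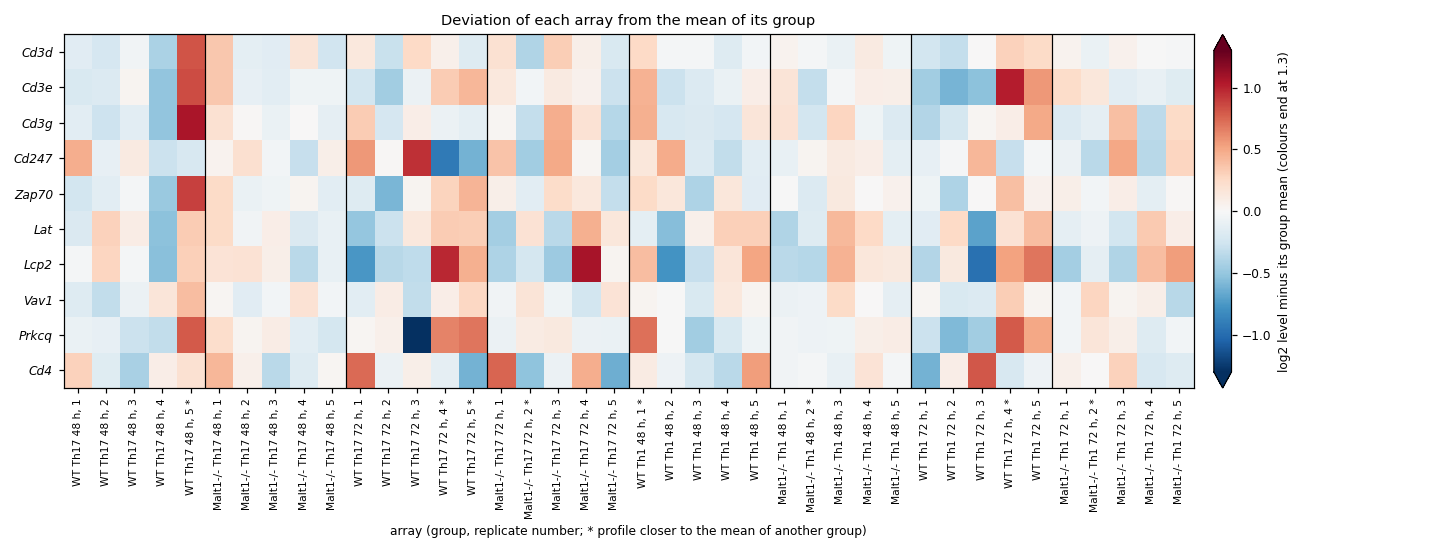
Log2 level minus the group mean (colour, red above and blue below) for each of the 10 genes (vertical axis) on each of 40 arrays (horizontal axis, ordered by group); asterisks mark the 8 arrays closer to another group. WT Th17 48 h replicate 5 is red for 9 of 10 genes, and the WT arrays with an asterisk are red for Prkcq.

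The spread within groups was wider in WT than in Malt1-/- cells for most of the 10 genes. The SD over 5 arrays was larger in WT for 9 genes in Th17 cells at 48 h, 6 in Th17 cells at 72 h, 9 in Th1 cells at 48 h and 8 in Th1 cells at 72 h. Over all genes tested the share with the larger SD in WT was 71.6%, 69.4%, 64.5% and 64.2%. Prkcq stood at 0.46, 0.86, 0.44 and 0.61 in WT and at 0.18, 0.11, 0.08 and 0.12 in Malt1-/- cells. The WT value of 0.86 rests on replicate 3 (7.31), without which the SD was 0.36 over 4 arrays. No test was made of these spreads.

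**Figure D5:**
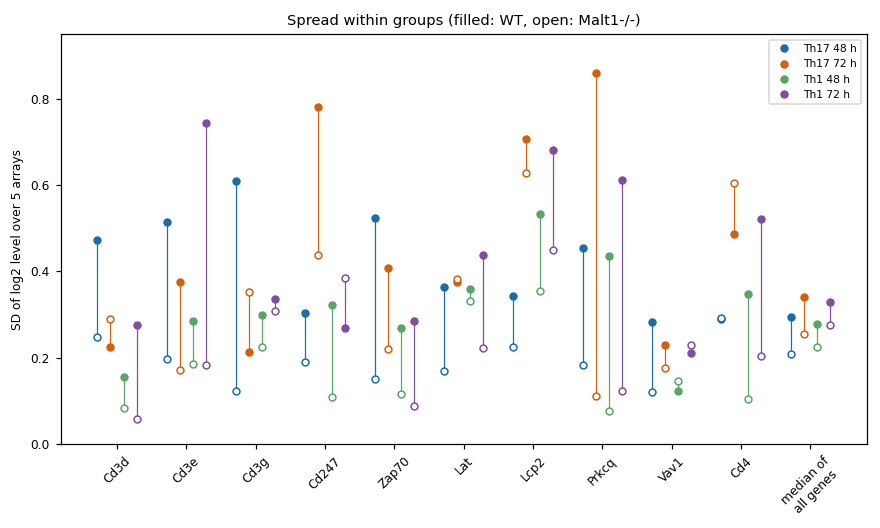
SD of the log2 level over 5 arrays (vertical axis) for each gene and for the median of all genes (horizontal axis), in 4 settings of lineage and time, with WT filled and Malt1-/- open. The Prkcq points are furthest apart in Th17 cells at 72 h, at 0.86 and 0.11, and the WT value is 0.36 without replicate 3.

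Beyond the 10 genes, 7 lists of other genes of the pathway were chosen with earlier results of these data known. Shares of called genes in them, here and below, may reflect that choice. The lists held 75 tested genes. In WT cells at 48 h 9 of these were higher and 12 lower in Th17 cells, at 72 h 11 and 8, and in Malt1-/- cells 13 and 14 at 48 h and 9 and 12 at 72 h. These are 28.0%, 25.3%, 36.0% and 28.0% of the 75, beside 17.5%, 18.9%, 18.6% and 20.8% of all genes, and no test compared the shares. Among 5 tyrosine kinases, Tec, a kinase that activates phospholipase C gamma, was higher in Th17 cells by 3.01 and 2.13 in WT and by 3.40 and 1.96 in Malt1-/- cells (48 h and 72 h; the highest adjusted p was 1.4e-06). Fyn, a Src family kinase, was lower in WT Th17 cells by -1.02 and -0.92 (adjusted p = 0.0071 and 0.014).

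Of 13 other adaptor genes, 4, 3, 5 and 2 were higher and 3, 2, 3 and 4 lower in Th17 cells (WT 48 h, WT 72 h, Malt1-/- 48 h, Malt1-/- 72 h). Trat1, which binds the receptor complex, was lower by -3.06, -1.26, -1.67 and -1.19, and Grap, a GRB2-like adaptor, by -2.01, -1.40, -2.34 and -1.98. Tespa1, an adaptor needed in T cell development, was lower in 3 of the 4 (-1.67 in WT cells at 48 h, -2.20 and -1.14 in Malt1-/- cells), and Skap1, which acts on integrins, was higher in 3 (1.22 in WT cells at 72 h, 1.09 and 1.43 in Malt1-/- cells). Among 18 effectors of calcium and Ras signalling, Vav3 (-2.63, -1.11, -1.88 and -1.14), Vav2 (-1.42 and -1.39 in WT cells, -1.15 in Malt1-/- cells at 48 h) and the calcium channel gene Orai1 (-0.70, -0.75, -1.26 and -1.26) were lower in Th17 cells. So Vav2 and Vav3 stood on the other side of 0 from Vav1. Itpr3, an inositol trisphosphate receptor, was higher, by 1.33, 1.33, 1.44 and 1.72.

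Of 10 co-receptors and costimulatory receptors, the inhibitory receptor gene Ctla4 was higher in Th17 cells in 3 comparisons (in WT cells at both times, by 1.24 at 72 h, and by 1.42 in Malt1-/- cells at 48 h), and Cd28 was lower in Malt1-/- Th17 cells (-1.22 and -1.53). Of 17 negative regulators, Sla, an adaptor that lowers receptor levels, was lower in 3 (-1.34 in WT cells at 48 h, -1.61 and -1.10 in Malt1-/- cells). Of the receptor chain genes, Ptcra was the only tested one, and it passed no test.

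Between genotypes, of the 75 genes 4 rose and 4 fell in Th17 cells at 48 h, 1 rose and 6 fell at 72 h, 2 fell in Th1 cells at 48 h and 1 rose at 72 h. These are 10.7%, 9.33%, 2.67% and 1.33% of the 75, beside 6.38%, 4.42%, 1.39% and 2.77% of all genes. Ctla4 fell in 3 of 4 comparisons (-1.66 and -1.58 in Th17 cells and -1.57 in Th1 cells at 48 h). Among the other genes named by rule, in Th17 cells at 48 h Themis, a regulator of receptor signal strength, fell by 1.57, while the adaptor Lax1 rose by 1.01 and the phosphatase gene Ubash3b by 0.64. At 72 h Icos (-1.37), Fyb, the adaptor ADAP (-1.26), Cblb, a ubiquitin ligase (-1.24), Itpkb (-0.91) and Cd8b1 (-0.65) fell and Trat1 rose (1.39). In the same comparison the myeloid sums differed as given above for Cd4. In Th1 cells the surface protein gene Thy1 fell at 48 h (-0.94). Over time 7 of the 75 (9.33%) rose in WT Th17 cells and 0 fell, where 4.97% of all genes rose and 7.36% fell. The 7 were Cblb (1.59), Fyb (1.12), Icos (0.94), Skap1 (0.84), Rasgrp1 (0.75), Itpkb (0.75) and Ptprc (0.69). The tests of a difference of the Malt1 effect called 0 of 75.

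For each of the 10 genes, the tested gene with the most similar pattern over the 40 arrays was found by Pearson's r. It was Sbk1 for Vav1 (0.92), Gtf2e2 for Cd247 (0.92), Erbin for Lat (0.90), Klf2 for Zap70 (0.87), Tmc6 for Cd3e (0.85), Hacd1 for Cd4 (0.85), Tdg-ps2 for Lcp2 (0.85), Nfatc1 for Prkcq (0.81) and Arhgap15 for both Cd3g (0.81) and Cd3d (0.80). With group means removed the values were 0.64 for Sbk1 and Vav1, 0.83 for Gtf2e2 and Cd247, 0.86 for Erbin and Lat, 0.83 for Klf2 and Zap70, 0.88 for Tmc6 and Cd3e and 0.88 for Nfatc1 and Prkcq. The arrays share groups and normalization, and these correlations are given as descriptions.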

How the data were processed

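Total RNA was measured on 40 Illumina MouseWG-6 v2 bead arrays, 8 groups of 5 by genotype, lineage and time per the labels. The deposited values of each probe are intensity without background subtraction or scaling between arrays. The deposited detection column, per the file headers, is a fraction between 0 and 1 and was read as 1 minus the detection p-value. The authors also deposited a log2 value table, equal to the log2 quantile-normalized intensity centred on each probe's median (largest difference 0.0149), so it carries no level. The sources used here name no reading software.

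Signals were background-corrected with the detection p-values (normexp, offset 16), quantile normalized and put on the log2 scale (neqc method, limma 3.58.1, R 4.3.3). Probes with a detection p under 0.05 on at least 5 of 40 arrays were kept, 20739 of 45281. The platform table gave 1 symbol to 34885 probes, several to 18 and none to 10378; 34807 matched RefSeq by Entrez ID. Each gene used its kept probe with the highest mean, which gave 10730 genes, and all kept probes were also fitted. One linear model with a mean per group was moderated with eBayes, and 16 comparisons were adjusted by Benjamini-Hochberg, threshold 0.05. Comparisons that share groups are not independent. The fit was checked on simulated data. The 10 genes, the gene lists, the markers and the rule for the genes named (of each list, up to 4 with the smallest p in each kind of comparison; the most correlated gene of each of the 10) were chosen with earlier results of these data known. Replicate numbers did not pair arrays: over 140 pairs of different groups the median residual correlation was 0.0140 (lowest -0.416, highest 0.513). The genes of 1 list are counted but not reported here. Array number limits the precision. Alternatives were another scaling, background, filter, probe rule, starting table, sample set, variance prior, array weights and replicate block, each array left out in turn, the 8 arrays closer to another group left out, and, chosen after seeing the data, 3 arrays with a myeloid marker sum over 1500 left out.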

Additional observations from a re-analysis of the deposited data

Results flagged for a closer look

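In 80 sets of 5 arrays (10 genes in 8 groups), 4 had a highest array whose gap to the others exceeded 0.71 of the range of the set, and about 1 in 20 sets would by chance. Cd3e on Malt1-/- Th17 48 h replicate 1 was 13.38, with the others at 12.90 to 12.97. Cd3g on WT Th17 48 h replicate 5 was 13.60, with the others at 12.03 to 12.40. Prkcq on the same array was 9.83, with the others at 8.72 to 8.95. Cd4 on Malt1-/- Th1 48 h replicate 4 was 7.80, with the others at 7.52 to 7.60. Dropping WT Th17 48 h replicate 5 moved the number of calls among the 10 genes from 2 to 5 of 40 between genotypes and from 2 to 4 of 40 over time. The share of all genes called without that array is not given here, so these changes are not read as particular to the 10 genes.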

How the results depend on the processing

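No call of the 10 genes changed direction under any of 12 other settings or 40 settings that each left out 1 array. Leaving out 1 array gave 1 to 5 calls of 40 between genotypes (2 with all arrays), 12 to 14 between lineages (13), 2 to 4 over time (2) and 0 to 1 for differences of the Malt1 effect (0). Between genotypes the count was 1 without a detection filter, 6 with array weights, 4 with the replicate number as a block, 8 without the 8 arrays closer to another group and 0 without the 3 arrays of high myeloid sum (4 at an unadjusted p under 0.05). Without the 8 arrays the shares of all genes called rose too, from 6.38% to 15.4% and 4.42% to 15.7% in Th17 cells and from 1.39% to 3.26% and 2.77% to 5.15% in Th1 cells (48 h, 72 h). Shares of all genes with array weights or the replicate block are not given here. Over time the count was 1 with median scaling, 0 with only the groups compared in the limma fit (7 at an unadjusted p under 0.05), 4 with array weights and 5 without the 8 arrays. Without the 8 arrays the shares of all genes called over time were 24.3% and 22.1% in WT Th17 and Th1 cells (12.3% and 10.5% with all arrays). In Malt1-/- Th17 and Th1 cells they were 5.2% and 17.6% (0.699% and 5.95% with all arrays). For the differences of the Malt1 effect the count was 1 without the 8 arrays (Cd247, Th17 minus Th1 at 72 h, -1.35, adjusted p = 0.017), where 3.23% of all genes were called (0.699% with all arrays). Between lineages the count was 9 to 16 under the other settings. Of the single differences, 25 lost and 30 gained a call over all other settings together. The replicate block made Cd247 pass between genotypes in Th17 cells at 48 h and 72 h (adjusted p = 0.033 and 0.036) and between lineages in WT cells at 48 h (0.043). With only the groups compared, Zap70 (0.39, adjusted p = 0.013) and Prkcq (-0.44, adjusted p = 0.0076) passed between lineages in Malt1-/- cells at 48 h. The Cd4 calls between lineages at 48 h, Lat in Malt1-/- cells at 48 h and Vav1 in Malt1-/- cells at 72 h passed under every setting run, though the Cd4 differences were -0.61 and -0.52 (WT, Malt1-/-) without background correction and the Lat difference 0.70 with the mean of its probes.

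Median scaling moved the median of all genes to 0.17 and 0.13 for Malt1-/- minus WT in Th17 cells (48 h, 72 h) and to -0.12 for Th17 minus Th1 in WT cells at 48 h. Relative to these, Lcp2 was 1.21 (genotype, 48 h), Cd4 -0.92 (genotype, 72 h), and in WT cells at 48 h Vav1 0.54, Cd4 -1.16 and Lcp2 -1.01. Over all genes, calls higher to lower went from 366 to 319 to 541 to 40 (genotype, Th17 48 h), from 310 to 164 to 101 to 30 (Th17 72 h), from 1094 to 779 to 400 to 855 (lineage, WT 48 h), from 1055 to 936 to 1028 to 427 (lineage, Malt1-/- 48 h) and from 533 to 790 to 155 to 37 (time, WT Th17). The cause was not tested. The BeadChip as a block was not run, because the headers used here name none. Signal over background limits the second Lat probe, detected on 8 of 40 arrays, and 1 Lcp2 probe, detected on 29 of 40. It also limits the Cd4 probe on which all Cd4 results rest, although that was detected on 40 of 40 arrays. Its raw signal was 169.7 to 555.2, and the array medians of raw signal were 127.1 to 193.3.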
